A study of Bos taurus with 40 samples.

Results

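The genes that bind, take up and oxidize vitamin A were examined in 4 tissues of Korean cattle, a beef breed: liver, abdominal fat, the back muscle longissimus dorsi and the pituitary gland. Genes were taken by symbol from a list of 9, of which 8 were found among the 13570 genes of the count tables. These 8 passed the filter of at least 1 read in the 40 libraries, which left 13148 genes to test. They are RBP4 and TTR, STRA6, CRABP1 and CRABP2, LRAT, RDH10 and ALDH1A1, and ALDH1A2 was not analysed here. RefSeq lists all of them as protein-coding genes. On its ARS-UCD2.0 assembly RBP4 lies on chromosome 26 and TTR on 24, STRA6 and CRABP1 on 21, CRABP2 on 3, LRAT on 17, RDH10 on 14 and ALDH1A1 on 8.

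As labelled, each tissue was taken after slaughter from the same 10 animals, 5 cows and 5 bulls. This gives 5 female and 5 male libraries per tissue. The labels name no treatment, and the animals were older than 22 months and had a carcass weight of 353 ± 36 kg as the submitters describe them. Their reproductive state is not given in the sources used here. The animals of each sex are numbered 1 to 5, and a cow and a bull with the same number are not paired. The question of the study was which genes are expressed differently between the sexes in each tissue. Levels are given in CPM, the read count of a gene scaled to the size of its library, with TMM factors that correct for library composition.

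Retinol leaves the liver bound to the retinol-binding protein encoded by RBP4, which travels in blood in a complex with transthyretin, encoded by TTR. STRA6 is the membrane receptor through which many cells take up retinol from that complex, and LRAT esterifies retinol for storage, as in the stellate cells of the liver. RDH10 oxidizes retinol to retinaldehyde and ALDH1A1 oxidizes retinaldehyde to retinoic acid, the ligand of nuclear receptors, while CRABP1 and CRABP2 bind retinoic acid inside the cell.

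The libraries held 5173092 to 19165864 reads on genes (median 10005607), so that 3 reads, the smallest level taken as detected, corresponded to 0.157 to 0.580 CPM. Marker genes matched the labelled tissues. The summed level of 10 hepatocyte genes was 160350 to 380720 CPM in liver and at most 1905 CPM elsewhere, and that of 9 muscle fibre genes was 145370 CPM or more in muscle and at most 208 CPM elsewhere. The 10 pituitary hormone and endocrine genes summed to 85436 CPM or more in pituitary gland and to at most 391 CPM elsewhere. The 8 adipocyte genes summed to 7083 to 26447 CPM in fat and to at most 3672 CPM elsewhere. In 1 library the sex-linked genes went against the label. The liver library labelled bull 3 had an XIST level of 1401 CPM and no read on USP9Y, DDX3Y or ZFY, and its nearest liver library was that of cow 4. The fat, muscle and pituitary libraries labelled bull 3 had 34.1, 55.8 and 56.7 CPM of USP9Y. The sex-linked genes of this liver library are those of a female, so it does not come from the animal of these fat, muscle and pituitary libraries. Its distance in read counts to the liver of cow 4 was a chi-square of 15.0 per gene. The next closest pair of liver libraries was at 43.9, and whether the livers labelled bull 3 and cow 4 are of 1 animal was not tested. The fat library labelled bull 5 was low on both sides, with 1.39 CPM of XIST and 1.78 CPM of USP9Y, where the other male fat libraries had 28.1 to 34.1 CPM of USP9Y. Both doubtful libraries are kept under their labels, also where animals are counted between liver and another tissue. Values without them are given after the comparison of tissues and beside the sex differences they moved most.

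The carriers were liver genes, and TTR more narrowly so than RBP4. RBP4 ranged from 1808 to 6966 CPM in the 10 liver libraries (median 4599) and from 445 to 2475 CPM in fat (median 1322). Its range was 138 to 225 CPM in pituitary gland (median 176) and 15.0 to 122 CPM in muscle (median 27.8). The order liver, fat, pituitary gland, muscle held in all 10 animals as labelled, the doubtful liver of bull 3 included. Of the 6 pairs of tissues only liver and fat had overlapping libraries. The mean in liver, 4630 ± 1344 CPM (SD, n = 10), was 3.39 times that in fat, 25.8 times that in pituitary gland and 117 times that in muscle. In edgeR's quasi-likelihood test the log2 difference was 1.81 (SE 0.28, adjusted p = 8.58e-07) between liver and fat and 2.87 (SE 0.281, adjusted p = 7.51e-11) between fat and pituitary gland.

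TTR ranged from 1312 to 3408 CPM in liver (median 2563) and reached no more than 17.4 CPM in any library of another tissue. Its mean of 2581 ± 619 CPM in liver was 433 times that in fat (5.96 ± 5.22 CPM), 476 times that in pituitary gland (5.42 ± 4.11 CPM) and 2207 times that in muscle (1.17 ± 1.21 CPM; n = 10 each). Liver libraries overlapped with no other library. The 10 hepatocyte genes also had reads in muscle, with a summed median of 109 CPM there beside 278370 CPM in liver. Whether the low TTR level in muscle arose in muscle itself was not tested. Fat and pituitary gland did not differ in the quasi-likelihood test (log2 difference 0.14, SE 0.399, adjusted p = 0.801), with 5 of 10 animals higher in fat. In the same quasi-likelihood test muscle was below fat by a log2 difference of 2.28 (SE 0.462, adjusted p = 4.20e-05) and below pituitary gland with a log2 difference of -2.15 (SE 0.462, adjusted p = 8.32e-05).

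RBP4 and TTR differed in how far their levels dropped outside the liver. For each read on TTR, the liver libraries held 0.762 to 3.25 reads on RBP4 (median 1.85). This number had a median of 44.4 in pituitary gland (9.54 to 118), 53.4 in muscle (4.12 to 232) and 368 in fat (99.4 to 625). These are read numbers without transcript length, so only their change from tissue to tissue can be read. In muscle TTR had 104 reads in all, so the number there is known only coarsely. The liver range lay below every library of the other tissues.

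**Figure D1:**
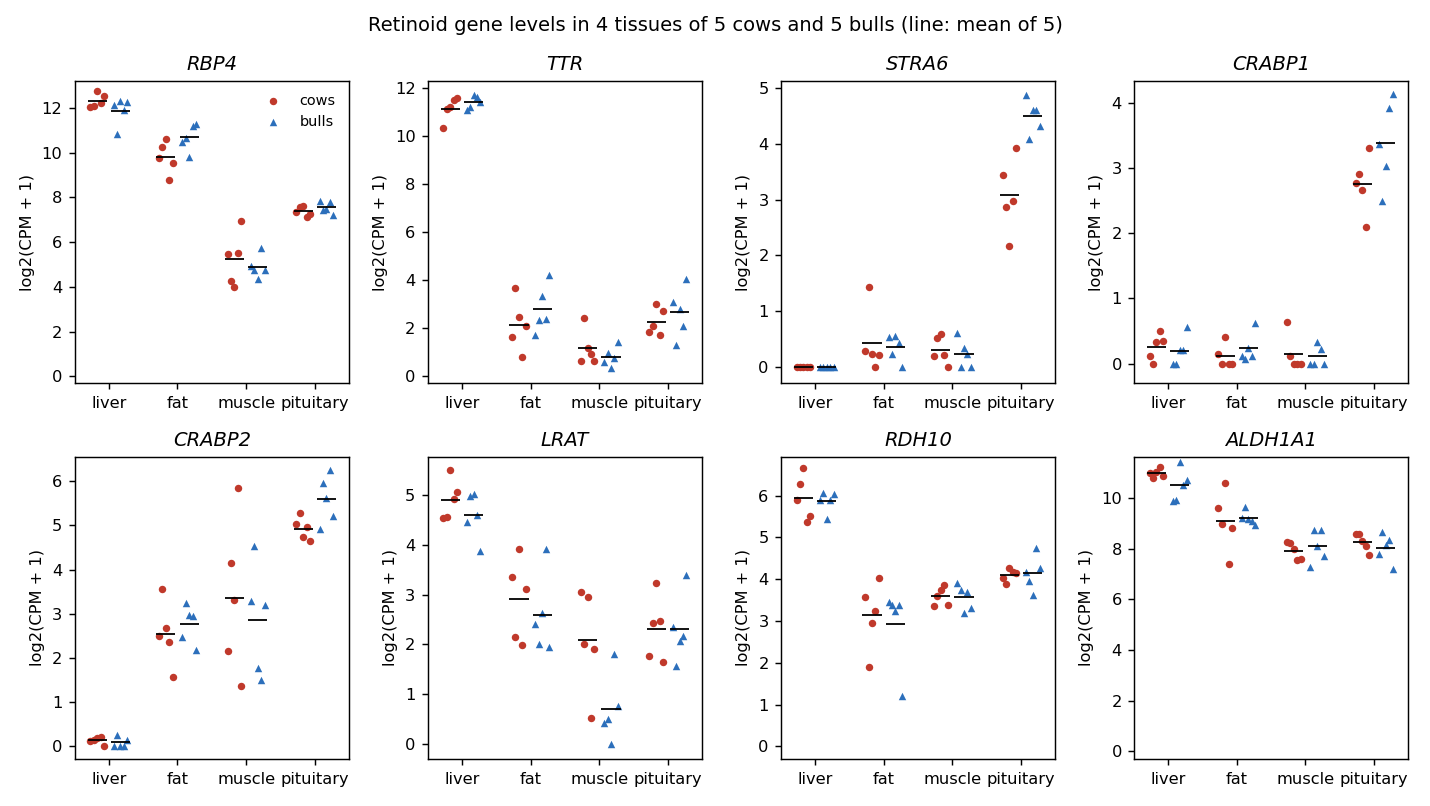
Level of each of the 8 genes in each library, as log2(CPM + 1) on the vertical axis, by tissue on the horizontal axis, with cows as circles, bulls as triangles and the mean of 5 animals as a line. RBP4, TTR, LRAT, RDH10 and ALDH1A1 have their highest tissue mean in liver, and STRA6, CRABP1 and CRABP2 have theirs in pituitary gland.

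**Figure D2:**
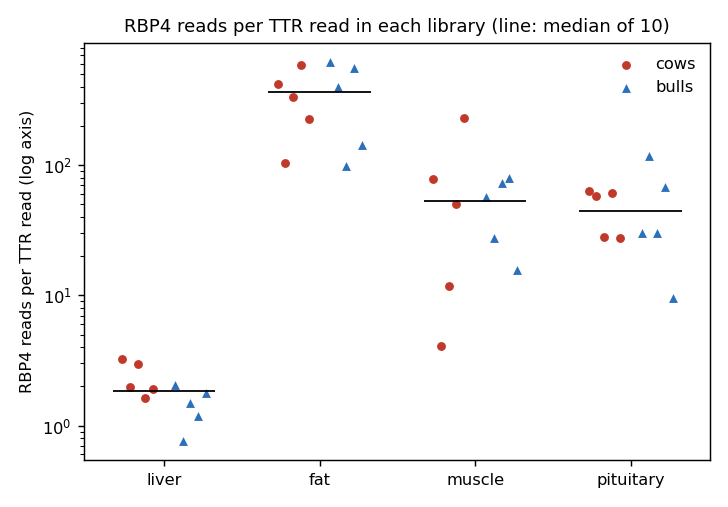
Reads on RBP4 per read on TTR in each library (log axis), by tissue, with cows as circles, bulls as triangles and the median of 10 libraries as a line. The liver libraries lie between 0.762 and 3.25 and the fat libraries between 99.4 and 625.

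STRA6, the uptake receptor, was a pituitary gene among these tissues. It had no read in any of the 10 liver libraries, at most 5 reads in a muscle library, and at most 5 reads in 9 of the 10 fat libraries, the exception being the fat library of cow 2 with 26 reads (1.69 CPM). In pituitary gland it ranged from 3.48 to 28.6 CPM (median 15.1), above every library of the other tissues. Over the pooled libraries of a tissue, the TMM-scaled level in pituitary gland was at least 441-fold higher than the floor of 3 reads over the liver group. That in fat was at least 10.4-fold higher, and at least 5.71-fold higher without cow 2. The pituitary mean of 15.1 ± 8.45 CPM was 41.6 times that in fat (0.363 ± 0.493 CPM) and 69.4 times that in muscle (0.218 ± 0.206 CPM; n = 10 each). In the quasi-likelihood test the log2 difference was -5.22 for fat to pituitary gland (SE 0.495, adjusted p = 2.39e-10) and -5.95 for muscle to pituitary gland (SE 0.647, adjusted p = 1.46e-10). Fat and muscle did not differ beyond their spread (log2 difference 0.73, SE 0.701, adjusted p = 0.363), but without TMM factors fat was above muscle by 1.497 (adjusted p = 0.0455) in that test.

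The retinoic acid binding proteins were also highest in pituitary gland. CRABP1 ranged from 3.27 to 16.5 CPM there (median 6.83), with a mean of 8.18 ± 4.24 CPM, and was below 0.6 CPM in each of the other 30 libraries, none of which had more than 7 reads. Liver, fat and muscle could therefore not be ordered for CRABP1 at this depth. Each lay below pituitary gland in the quasi-likelihood test, liver with a log2 difference of -5.34 (SE 0.574, adjusted p = 2.42e-11), fat with -5.87 (SE 0.568, adjusted p = 2.44e-12) and muscle with -6.30 (SE 0.788, adjusted p = 7.86e-12).

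CRABP2 was spread more widely. It ranged from 23.9 to 75.0 CPM in pituitary gland (median 34.1), from 1.58 to 56.3 CPM in muscle (median 8.42) and from 1.97 to 10.8 CPM in fat (median 5.02), and no liver library had more than 1 read. The pituitary mean of 39.9 ± 16.7 CPM was 7.01 times that in fat (5.70 ± 2.58 CPM) and 3.07 times that in muscle (13.0 ± 16.6 CPM). In the quasi-likelihood test the log2 difference was -2.76 for fat to pituitary gland (SE 0.396, adjusted p = 3.42e-07) and -1.64 for muscle to pituitary gland (SE 0.396, adjusted p = 5.15e-04). The SD in muscle exceeded the mean, and the muscle library of cow 4 alone was at 56.3 CPM. Fat lay below muscle in the quasi-likelihood test (log2 difference -1.12, SE 0.403, adjusted p = 0.0166), but in only 6 of 10 animals. In that test the call was lost with the animal as a block (-0.75, adjusted p = 0.0780) and without TMM factors (-0.15, adjusted p = 0.771). It was also lost without cow 4 (-0.49, adjusted p = 0.279), bull 2 (-0.83, adjusted p = 0.0910) or bull 5 (-0.87, adjusted p = 0.0880).

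The storage enzyme LRAT and the 2 oxidizing enzymes were highest in liver. LRAT ranged from 13.7 to 44.2 CPM in liver (median 26.2) and from 2.86 to 14.1 CPM in fat (median 4.78). It was between 1.97 and 9.52 CPM in pituitary gland (median 3.82) and between 0 and 7.31 CPM in muscle (median 1.59). Its liver level was above each other tissue of the same animal in all 10 animals as labelled, the doubtful liver of bull 3 included. The mean of 27.1 ± 8.39 CPM was 4.04 times that in fat (6.70 ± 4.45 CPM; log2 difference 2.02, SE 0.375, adjusted p = 2.06e-05, quasi-likelihood test). Fat and pituitary gland were neighbours that did not differ (log2 difference 0.59, SE 0.380, adjusted p = 0.176); without bull 5 this difference was 0.96 (adjusted p = 0.0369). Muscle was below pituitary gland (log2 difference -1.28, SE 0.426, adjusted p = 0.00803) and, in all 10 animals, below fat (log2 difference of fat to muscle 1.87, SE 0.424, adjusted p = 2.22e-04).

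RDH10 ranged from 40.4 to 99.8 CPM in liver (median 58.5), which overlapped with no other tissue, and from 1.31 to 25.7 CPM in the other 30 libraries. Its means were 60.9 ± 17.8 CPM in liver, 16.8 ± 3.78 CPM in pituitary gland, 11.1 ± 2.05 CPM in muscle and 8.26 ± 4.0 CPM in fat. In the quasi-likelihood test the difference of muscle to pituitary gland was small (log2 difference -0.60, SE 0.246, adjusted p = 0.0316) and had the same direction in all 10 animals. It lost its call without cow 1 (quasi-likelihood adjusted p = 0.0632), cow 5 (0.0533) or bull 4 (0.0924). The difference of fat to muscle was not called in that test (-0.43, SE 0.247, adjusted p = 0.137; without cow 5 -0.60, adjusted p = 0.0432), and without TMM factors it had the other sign (0.41, adjusted p = 0.176).

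ALDH1A1 was abundant in every tissue, with 931 to 2722 CPM in liver (median 1816) and 167 to 1532 CPM in fat (median 555). Pituitary gland had 146 to 399 CPM (median 295) and muscle 153 to 422 CPM (median 261). Its mean of 1790 ± 567 CPM in liver was 2.79 times that in fat (641 ± 360 CPM; log2 difference 1.47, SE 0.260, adjusted p = 7.27e-06, quasi-likelihood test). On the log2 scale fat lay above muscle by 1.25 (SE 0.260, adjusted p = 8.86e-05) and above pituitary gland by 1.14 (SE 0.260, adjusted p = 2.61e-04) in that test. Muscle and pituitary gland did not differ (270 ± 94.0 against 292 ± 82.5 CPM; log2 difference -0.11, SE 0.260, adjusted p = 0.744) with TMM factors, and without them the difference was -1.01 (adjusted p = 0.00150).

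Over the 6 comparisons of tissues, most of all tested genes differed, so the counts of called members are read against that background. Between liver and fat 7 of the 8 genes were called, 5 higher and 2 lower in liver, where 63.7% of all genes were called (28.7% higher and 35.0% lower). Between liver and muscle the number was again 7, 5 higher and 2 lower in liver, with a background of 61.6% (27.9% and 33.8%). Between liver and pituitary gland all 8 were called, 5 higher and 3 lower in liver, with a background of 64.3% (29.2% and 35.0%). Fat and muscle differed for 5 genes, 4 higher and 1 lower in fat, with a background of 59.3% (32.6% and 26.7%), and for 4 genes with the animal as a block. Fat and pituitary gland differed for 6, 2 higher and 4 lower in fat, with a background of 64.2% (31.6% and 32.6%). Muscle and pituitary gland differed for 7, all lower in muscle, with a background of 63.7% (31.2% higher and 32.5% lower). The libraries of liver and pituitary gland did not overlap for any of the 8 genes, against 33.2% of all genes, and those of fat and muscle did not overlap for 1, against 15.8%. In the other pairs the libraries did not overlap for 3 of 8 genes between liver and fat (21.0% of all genes), 6 between liver and muscle (26.6%), 4 between fat and pituitary gland (24.5%) and 3 between muscle and pituitary gland (30.8%). A lower level in such bulk tissue can come from fewer cells of a type or from less RNA per cell, which cannot be told apart here.

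The comparisons of tissues were repeated without the doubtful libraries. Without the liver library labelled bull 3 the liver means were 4580 ± 1416 CPM for RBP4, 2489 ± 580 CPM for TTR, 26.6 ± 8.73 CPM for LRAT, 62.9 ± 17.6 CPM for RDH10 and 1687 ± 492 CPM for ALDH1A1 (SD, n = 9). Without the fat library labelled bull 5 the fat means were 1241 ± 573 CPM for RBP4, 4.69 ± 3.54 CPM for TTR, 5.95 ± 2.61 CPM for CRABP2, 7.13 ± 4.49 CPM for LRAT, 9.03 ± 3.36 CPM for RDH10 and 658 ± 377 CPM for ALDH1A1 (SD, n = 9). The median of reads on RBP4 per read on TTR was then 1.93 in liver and 399 in fat. No call of the 8 genes between tissues was gained or lost without either library.

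Within a tissue, sex was tested with the model called M1, a negative binomial model with sex as its only term. It was tested by a likelihood ratio test (LRT) in edgeR, with p adjusted over the 13148 genes. No retinoid gene was called in liver (background 0.175% of genes called), fat (0.114%) or muscle (0.517%), and 1 of 8, STRA6, was called in pituitary gland (0.745%, and 0.555% higher in bulls). At an unadjusted p under 0.05 the numbers were 3 in pituitary gland, 1 each in muscle and fat, and 0 in liver. Among all genes that threshold was passed by 9.27% in pituitary gland, 11% in muscle, 6.88% in fat and 7.45% in liver. DESeq2 called 1 member in pituitary gland and none elsewhere. The authors had already reported STRA6 as differing between the sexes in pituitary gland from these libraries. The members were chosen with earlier results of these data known, so these counts are a description only. The log2 fold changes of bulls to cows ran from -0.18 to 1.44 in pituitary gland and from -2.33 to 0.25 in muscle. They ran from -0.66 to 1.11 in fat and from -0.72 to 0.24 in liver (7 genes, STRA6 having no reads). Their median was 0.44 in pituitary gland, -0.68 in muscle and -0.03 in fat, and -0.29 in liver over the 7 genes with reads. The medians of all genes were 0 in pituitary gland, -0.04 in muscle and -0.06 in fat. The median of the members in muscle lay between CRABP1, with 7 reads in all there, and RBP4, which was at 0.03 without cow 5.

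**Figure D3:**
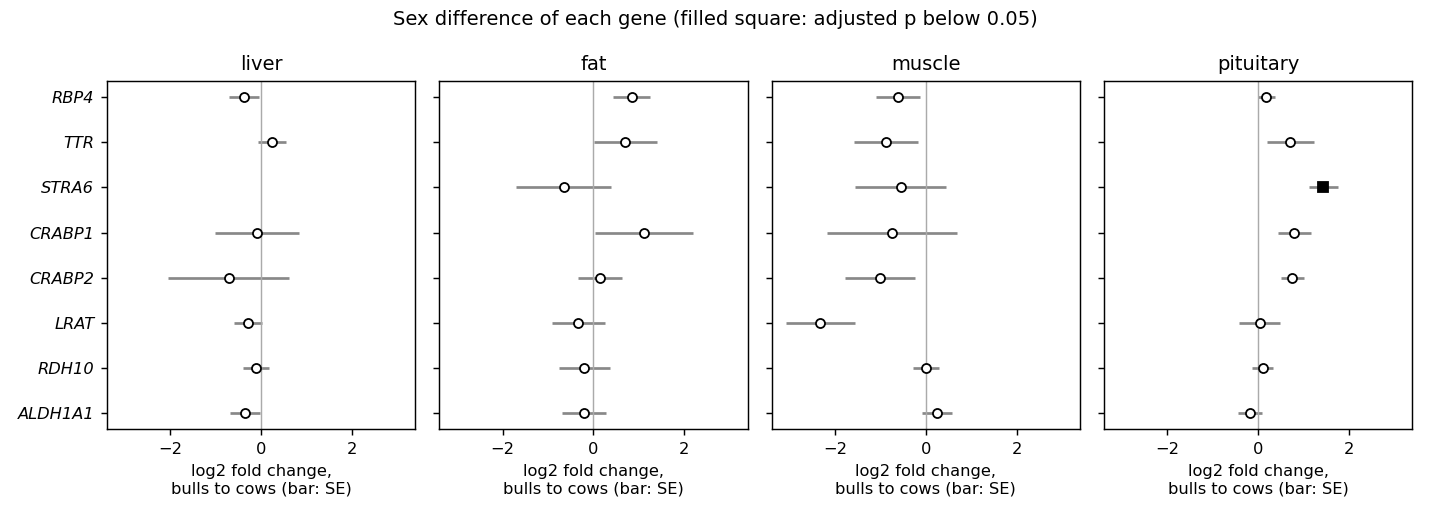
Log2 fold change of bulls to cows from M1 on the horizontal axis for each gene in the 4 tissues, with bars of 1 standard error and a filled square where the adjusted p was below 0.05. STRA6 in pituitary gland, at 1.44, is the filled square, LRAT in muscle lies farthest from 0 at -2.33, and STRA6 in liver is not drawn because it had no reads.

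STRA6 was male-biased in pituitary gland. Cows 1 to 5 had 9.91, 6.30, 3.48, 6.86 and 14.2 CPM and bulls 1 to 5 had 28.6, 16.1, 23.4, 23.3 and 18.9 CPM. The sexes did not overlap, the highest cow lying below the lowest bull, which was the case for 1.34% of all genes in this tissue. The means were 8.14 ± 4.06 CPM in cows and 22.1 ± 4.79 CPM in bulls (SD, n = 5 each), with a log2 fold change of 1.44 (SE 0.321, LRT adjusted p = 0.00476). The exact permutation p was 0.00794 (two-sided), the smallest that 5 against 5 animals can give. The call held without each single animal, with log2 fold changes of 1.24 to 1.73 and LRT adjusted p of 0.0411 or less. It was lost in edgeR's quasi-likelihood test, where the log2 fold change was again 1.44 with an adjusted p of 0.143. The counts were 607 reads in the 5 cows and 1798 reads in the 5 bulls.

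Other genes of the pituitary libraries differed between the sexes beside STRA6. Of the 10 endocrine genes 1, CGA (the shared subunit of the glycoprotein hormones), was called, with a log2 fold change of 1.84 (SE 0.437, LRT adjusted p = 0.0125), and the summed level of the list was 85436 to 268030 CPM in cows and 145790 to 288090 CPM in bulls. Of 9 muscle fibre genes 2 were called higher in bulls, MYH2 and MYH7 (sums 19.1 to 46.5 against 31.1 to 182 CPM), of 6 meninges genes 2, PTGDS and SLC13A4 (216 to 535 against 262 to 575 CPM). Of 6 fibroblast genes 1 was, COL1A1 (493 to 713 against 677 to 1655 CPM). MYH2 and MYH7 were low in pituitary gland, with means of 6.13 and 11.1 CPM. Their means in muscle were 32327 and 12861 CPM, and where the pituitary reads arose was not tested. AVP, a hormone made in the hypothalamus, was higher in bulls too, and AVP and OXT together summed to 0.0725 to 0.624 CPM in cows and 1.15 to 1.83 CPM in bulls without overlap. The part of cell composition or of dissection in the difference of STRA6 was not tested. Of the 6 meninges genes, SLC13A4 (28.3 to 142 CPM), PTGDS (11.1 to 86.5 CPM), OGN (29.9 to 146 CPM) and IGF2 (80.3 to 323 CPM) were expressed in each pituitary library, and SLC22A6 and SLC22A8 were below 1 CPM in each. Most of the expressed ones were not particular to pituitary gland. The means of PTGDS and OGN were higher in fat (215 and 410 CPM) than in pituitary gland (33.9 and 67.6 CPM). That of IGF2 was higher in liver (4170 against 166 CPM). SLC13A4 had its highest mean in pituitary gland (81.6 CPM, beside 1.46 CPM in fat and less in liver and muscle).

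CRABP1 and CRABP2 were not called in pituitary gland. CRABP2 had 32.0, 37.7, 25.7, 30.02 and 23.9 CPM in cows 1 to 5 and 29.1, 61.6, 48.2, 75.0 and 36.3 CPM in bulls 1 to 5. Bulls 1 and 5 lay within the range of the cows, and bulls 2, 3 and 4 lay above it. The log2 fold change was 0.75 (SE 0.255, unadjusted p = 0.00352, LRT adjusted p = 0.17), and without bull 1 it was 0.89 (LRT adjusted p = 0.0391). CRABP1 had 5.81, 6.48, 5.36, 3.27 and 8.96 CPM in cows and 9.38, 4.64, 7.18, 14.2 and 16.5 CPM in bulls, which overlapped, with a log2 fold change of 0.80 (SE 0.355, LRT adjusted p = 0.434). The exact permutation p was 0.0556 for CRABP2 and 0.119 for CRABP1 (two-sided, unadjusted).

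**Figure D4:**
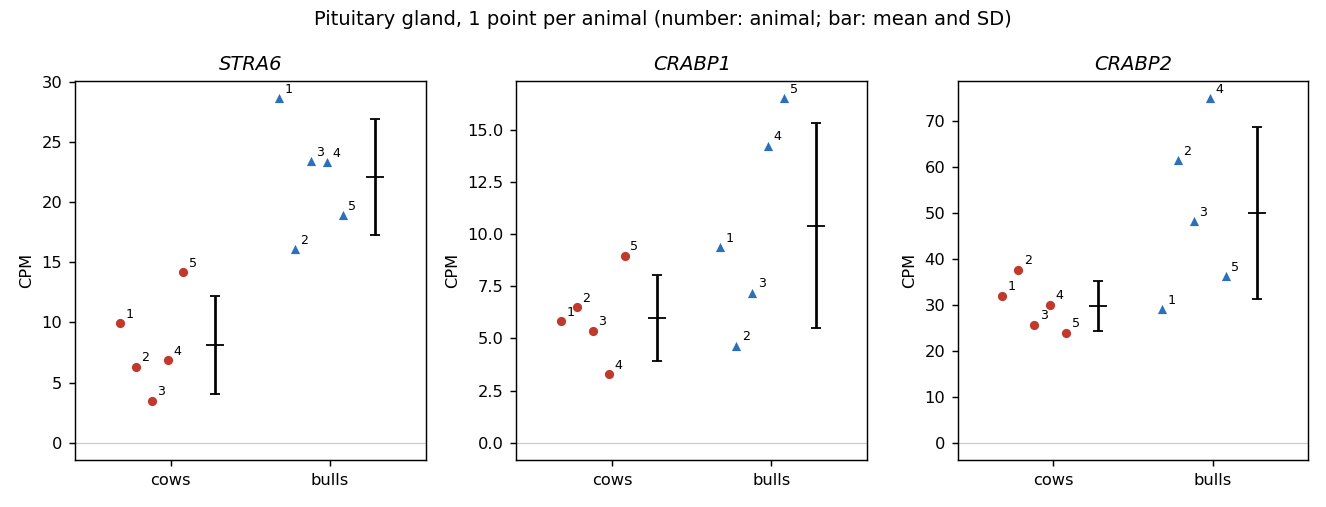
Level of STRA6, CRABP1 and CRABP2 in the pituitary gland of each animal, in CPM on the vertical axis, with cows as circles, bulls as triangles, the animal's number beside each point, and the mean and SD of 5 animals as a bar. For STRA6 the 5 bulls, at 16.1 to 28.6 CPM, lie above the 5 cows, at 3.48 to 14.2 CPM, and for both other genes the sexes overlap.

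The other 5 genes gave no call in pituitary gland. RBP4 had 168 ± 25.1 CPM in cows and 190 ± 33.6 CPM in bulls (log2 fold change 0.18, SE 0.184), TTR 4.12 ± 2.05 and 6.73 ± 5.44 CPM, LRAT 4.38 ± 2.54 and 4.47 ± 2.93 CPM, RDH10 16.3 ± 1.69 and 17.4 ± 5.33 CPM, and ALDH1A1 311 ± 70.7 and 273 ± 96.9 CPM (SD, n = 5 each). Without TMM factors the log2 fold change of RBP4 was -0.0073.

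The gene farthest from equality between the sexes in muscle was LRAT, which was not called. Cows 1 to 5 had 7.31, 3.03, 6.73, 0.443 and 2.76 CPM and bulls 1 to 5 had 0.347, 0.420, 0, 2.48 and 0.691 CPM. All bulls except bull 4 lay below 0.7 CPM, and all cows except cow 4 lay above 2.7 CPM, so that bulls 4 and 5 lay within the range of the cows and cow 4 within that of the bulls. The means were 4.05 ± 2.89 CPM in cows and 0.789 ± 0.980 CPM in bulls (SD, n = 5 each), from 165 and 26 reads in all. The log2 fold change was -2.33 (SE 0.763, unadjusted p = 0.00265, LRT adjusted p = 0.147), with an unadjusted exact permutation p of 0.0397 (two-sided). Without cow 4 it was -2.60 (LRT adjusted p = 0.00478) and without bull 4 -3.34 (LRT adjusted p = 0.0213), the 2 fits in which it was called. Among all genes 553 were called in muscle without cow 4 and 44 without bull 4, beside 68 with all 10 libraries. The 7 leukocyte markers summed to 103 to 276 CPM in the cows and 44.4 to 154 CPM in the bulls, with CD14 called lower in bulls (log2 fold change -1.40, SE 0.344, LRT adjusted p = 0.0233). Of the other markers, MYH1, a myosin of fast fibres, was lower in the muscle of bulls (log2 fold change -5.20, SE 0.402, LRT adjusted p = 8.27e-24) and FABP7, from the glia list, was higher (3.05, SE 0.664, LRT adjusted p = 0.00858). Reads on a row without a gene name were 2.15% of the reads on genes in the muscle library of cow 4. They were 0.450 to 0.679% in the other cows and 0.897 to 2.76% in the bulls (2.67% in bull 4). The parts of these markers and of this share in the level of LRAT were not tested.

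RBP4 in muscle was 43.0, 18.2, 15.0, 44.5 and 122 CPM in cows 1 to 5 and 29.5, 26, 19.3, 53.2 and 26 CPM in bulls 1 to 5. The bulls lay within the range of the cows, and the log2 fold change was -0.62 (SE 0.481, LRT adjusted p = 0.709; 0.03 without cow 5). Cow 5, the highest, also had the highest summed level of the 8 adipocyte genes in muscle, 2575 CPM. The other cows had 528 to 1561 CPM and the bulls 770 to 1286 CPM. Of these genes GPD1 had a mean of 934 CPM in muscle and 875 CPM in fat, and the next highest in muscle, PLIN1, had 63.1 CPM. The sum is therefore not particular to fat cells, and their part in the level of RBP4 was not tested. CRABP2 was 3.45, 16.6, 8.89, 56.3 and 1.58 CPM in the cows and 8.68, 22.3, 2.38, 1.82 and 8.15 CPM in the bulls (log2 fold change -1.01, SE 0.777, LRT adjusted p = 0.709; 0.18 without cow 4). The other genes in muscle had adjusted p of 0.709 or more.

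**Figure D5:**
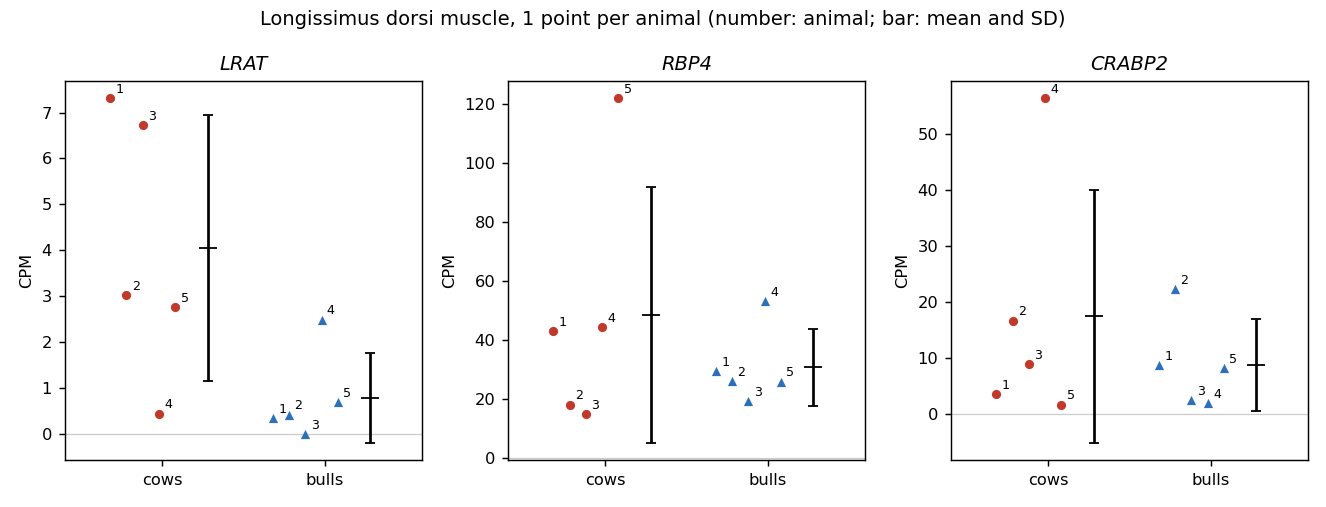
Level of LRAT, RBP4 and CRABP2 in the longissimus dorsi muscle of each animal, in CPM on the vertical axis, with cows as circles, bulls as triangles, the animal's number beside each point, and the mean and SD of 5 animals as a bar. For LRAT 4 of 5 cows lie above 2.7 CPM and 4 of 5 bulls below 0.7 CPM, and single cows are highest for RBP4 (cow 5, 122 CPM) and CRABP2 (cow 4, 56.3 CPM).

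In fat, RBP4 had the smallest p of the 8 genes. Cows 1 to 5 had 882, 1229, 1546, 445 and 754 CPM and bulls 1 to 5 had 1414, 1635, 910, 2357 and 2475 CPM. The bull was the higher in 22 of the 25 pairs of a cow with a bull. The log2 fold change was 0.84 (SE 0.410, unadjusted p = 0.0409, LRT adjusted p = 0.692; exact permutation p = 0.0556, two-sided), and 0.70 (LRT adjusted p = 0.701) without the library labelled bull 5. The adipocyte genes summed to 7083 to 15116 CPM in cows and 11060 to 26447 CPM in bulls, highest in bull 5, and their part was not tested. The fat library labelled bull 5 also had the lowest RDH10 level, 1.31 CPM beside 8.42 to 9.86 CPM in the other bulls, and the highest TTR level in fat, 17.4 CPM. Without this library the log2 fold change was 0.12 in place of 0.71 for TTR and 0.26 in place of 1.11 for CRABP1. That of RDH10 changed from below to above 0, and none of these genes was called.

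In liver, the cows had 5257 ± 1152 and the bulls 4003 ± 1324 CPM of RBP4, and 2377 ± 695 and 2784 ± 527 CPM of TTR. Of the enzymes they had 30.05 ± 9.03 and 24.1 ± 7.39 CPM of LRAT, 63.9 ± 24.6 and 57.9 ± 9.16 CPM of RDH10, and 2026 ± 242 and 1555 ± 726 CPM of ALDH1A1 (SD, n = 5 each). All log2 fold changes were between -0.72 and 0.24 with LRT adjusted p of 0.884 or more. The library labelled bull 3 had the highest TTR (3408 CPM) and ALDH1A1 (2722 CPM) levels of the bulls. Without it the log2 fold change of ALDH1A1 was -0.68 in place of -0.35 (unadjusted p = 0.0242, LRT adjusted p = 0.599), and none of the 8 genes was called. Of all genes 61 were then called in liver, beside 23 with it.

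Over the 4 tissues together, the model M2 with sex and tissue called none of the 8 genes (background 1.69%), and neither did the quasi-likelihood test, DESeq2 or limma with voom and the animal as a block. LRAT was the 1 gene with an unadjusted p under 0.05 (16.7% of all genes), at 0.0308 (log2 fold change -0.64, SE 0.288, LRT adjusted p = 0.247), and STRA6 had a log2 fold change of 0.29 (SE 0.456, LRT adjusted p = 0.796). The test of the interaction of sex and tissue, which asks whether the sex difference itself differs between tissues, called none of the 8 genes (background 0.335%). Its unadjusted p was under 0.05 in 8.58% of all genes, and among the 8 for LRAT (0.0179, LRT adjusted p = 0.386) and RBP4 (0.0300, LRT adjusted p = 0.461), and for STRA6 it was 0.102 (LRT adjusted p = 0.736). Without the liver library labelled bull 3 the LRT adjusted p of the interaction was 0.411 for LRAT, 0.449 for RBP4 and 0.749 for STRA6, and without the fat library labelled bull 5 it was 0.279, 0.547 and 0.623. The LRT adjusted p of LRAT in M2 was 0.239 and 0.319 in these fits, and that of STRA6 0.808 and 0.634. The sex difference of STRA6 in pituitary gland was thus not shown to differ from that in the other tissues, where the gene had 16 reads in muscle, 51 in fat and 0 in liver.

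Other genes of the retinoid pathway were described by lists of carriers, ester enzymes, dehydrogenases, breakdown enzymes, receptors and target genes, of which 48 genes were tested. Sex was called in M1 for 0 of 48 in liver and in fat (4 and 6 at an unadjusted p under 0.05), 1 in muscle and 1 in pituitary gland (8 and 7), and in M2 for 2. The shares of all genes at both thresholds are those given above for the 8 genes, with 1.69% called in M2. CES1, an esterase that can hydrolyse retinyl esters, was female-biased in muscle, with 38.0 ± 25 CPM in cows and 6.80 ± 3.14 CPM in bulls (SD, n = 5 each; log2 fold change -2.47, SE 0.498, LRT adjusted p = 0.00172), and in M2 (-1.05, SE 0.289, LRT adjusted p = 0.0372). In the quasi-likelihood test its call was lost in muscle (-2.46, adjusted p = 0.132) and in M2 (-1.05, adjusted p = 0.0737). The M2 call was lost too in limma with voom and the animal as a block (-0.73, adjusted p = 0.476) and without any 1 of cows 1, 2 and 5 and bulls 1 to 4 (LRT adjusted p up to 0.157). CYP4V2, a cytochrome P450 that oxidizes fatty acids and has been linked to retinoids in the eye, was female-biased in M2 (-0.82, SE 0.213, LRT adjusted p = 0.0253), with log2 fold changes below 0 in each tissue and -1.92 in muscle (LRT adjusted p = 0.0549). Its M2 call was lost in the quasi-likelihood test (-0.81, adjusted p = 0.0642), in limma with voom and the animal as a block (-0.55, adjusted p = 0.450) and without any 1 of cows 1, 2 and 3 and bulls 1, 2 and 4 (LRT adjusted p up to 0.130). RARRES2, a gene that responds to retinoids and encodes chemerin, was male-biased in pituitary gland, with 201 ± 114 CPM in cows and 721 ± 407 CPM in bulls (log2 fold change 1.84, SE 0.481, LRT adjusted p = 0.0352). It was not called in the quasi-likelihood test (1.84, adjusted p = 0.254), in DESeq2 (1.83, adjusted p = 0.108) or without any 1 of cows 1, 2 and 3 and bulls 2, 3 and 4 (1.599 to 1.85, LRT adjusted p up to 0.162). These alternatives were chosen after seeing the data.

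Between tissues, 37 of the 48 pathway genes differed between liver and fat (20 higher and 17 lower in liver), 34 between liver and muscle (23 and 11) and 35 between liver and pituitary gland (27 and 8). The number was 31 between fat and muscle (23 higher and 8 lower in fat), 29 between fat and pituitary gland (21 and 8) and 33 between muscle and pituitary gland (19 higher and 14 lower in muscle), with the background percentages given above for each pair. The carrier and receptor gene with the highest level was CD36, a fatty acid and carotenoid transporter, in liver (881 ± 224 CPM), fat (2544 ± 933 CPM) and muscle (578 ± 292 CPM). Of the ester enzymes the highest was CES1 in liver (674 ± 190 CPM) and the acyltransferase DGAT2 in fat (3035 ± 1110 CPM). The lipase LPL was highest in muscle (278 ± 184 CPM) and DGAT1 in pituitary gland (62.1 ± 10.8 CPM).

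Of the dehydrogenases and reductases the highest was ADH1C in liver (3416 ± 857 CPM), DHRS3, which reduces retinaldehyde to retinol, in fat (179 ± 63.2 CPM), DHRS7C in muscle (178 ± 75.3 CPM) and ADH5 in pituitary gland (62.9 ± 15.6 CPM). CYP4V2, described above as an enzyme that oxidizes fatty acids, was the highest of the breakdown list in each tissue. Its mean ran from 22.7 ± 22.5 CPM in muscle to 579 ± 168 CPM in liver, and does not stand for the breakdown of retinoic acid. Of the receptors the highest was RARA in liver (105 ± 31.9 CPM) and fat (94.7 ± 19.0 CPM), RXRB in muscle (50.2 ± 15.0 CPM) and RXRG in pituitary gland (35.7 ± 11.8 CPM). Of the genes known to respond to retinoic acid the highest was RARRES2 in liver (848 ± 159 CPM) and pituitary gland (461 ± 393 CPM) and PDK4, a kinase that restrains glucose oxidation, in fat (1100 ± 675 CPM) and muscle, where it ranged from 167 to 13600 CPM (SD, n = 10 each). These highest genes were picked by read number without transcript length, so a longer transcript has more reads at the same number of molecules.

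The genes whose levels ran most like a member's over the 40 libraries were found by Pearson's r of log2(CPM + 1) among 10945 genes with a mean of at least 1 CPM. They were P2RX2 (r = 0.973), RNF183 and GABRP for STRA6, FBP1 (0.965), ISOC1 and OS9 for RBP4, and CFI (0.985), SERPIND1 and GULO for TTR. For the binding proteins they were GPR6 (0.977), GAP43 and NRSN2 for CRABP1 and RCOR2 (0.906), TMEM35 and SPINT2 for CRABP2. For the enzymes they were CYP4V2 (0.926), TMEM220 and NT5E for LRAT, SDC3 (0.940), LGALS8 and ACAD11 for RDH10, and HSD17B4 (0.947), MOSC2 and ALDH9A1 for ALDH1A1. The 40 libraries are 4 tissues of 10 animals, so these values mostly describe the contrast between tissues.

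Within the 10 libraries of the tissue where each gene was highest, the closest were ZNF174 (r = 0.947), TRIM8 and LPAR2 to STRA6, SPNS2 (0.945), CALY and POMC (0.923) to CRABP1, and EPHB6 (0.953) and BREH1 to CRABP2 in pituitary gland. In liver they were IGFBP2 (0.943), NDUFA3 and WBP2 to RBP4, CYP3A5 (0.922), ZNF207 and HSD17B2 to TTR. For the enzymes they were SGPP1 (0.859), ZNF642 and C9H6orf211 to LRAT, ARHGAP20 (0.949), B4GALT6 and COTL1 to RDH10, and GSTM1 (0.950), KDM6A and KBTBD6 to ALDH1A1. With 10 libraries and 9929 or 10433 genes searched, such values are a description only. The members themselves ran less closely together. In pituitary gland r of STRA6 was 0.62 with CRABP1 and 0.47 with CRABP2, and in liver r of RBP4 was 0.15 with TTR and 0.64 with ALDH1A1 (n = 10 libraries each).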

How the data were processed

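Poly-A RNA of 40 tissue samples was sequenced as paired-end reads. The authors trimmed the reads with Trimmomatic, aligned them to UCSC bosTau7 with Bowtie2 within Tophat2 and deposited raw read counts per gene from HTSeq, 1 table per sample, without normalization or pooling. Only uniquely aligned reads were counted, which can undercount a gene that has a near-identical copy, and the counting mode and strand setting are not given in the sources used here. A row without a gene name (0.114 to 2.76% of the reads on genes) was left out. Coordinates are not printed, because the annotation at hand, ARS-UCD2.0, is of another assembly and served only for chromosomes.

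Counts were analysed with edgeR 4.0.16 in R 4.3.3. M1 (sex, 10 libraries of a tissue), M2 (sex and tissue, 40 libraries) and the interaction used TMM factors, estimateDisp, glmFit and glmLRT. Tissues were compared with glmQLFit and glmQLFTest in 1 fit of 8 groups. P-values were Benjamini-Hochberg adjusted over 13148 genes, with a threshold of 0.05. Fold changes of fits use a prior count of 0.125, and standard errors come from the same models. Exact permutation tests enumerated the 252 assignments of 10 animals for the difference of mean log2(CPM + 1). Fits were tested on simulated counts. Alternatives were the other edgeR test, RLE factors, no TMM factors, filterByExpr, DESeq2 1.42.0, limma 3.58.1 with voom, the animal as a block, and leaving out each animal. Libraries were grouped by the labels, and the 4 libraries of an animal by its ear tag. The correlation of an animal's deviations between 2 tissues had a median of 0.0285 to 0.324. P-values of M1 measure the spread between these animals. Those of M2, the interaction and the tissue comparisons come from fits without an animal term. They measure the spread between libraries, 4 of which share an animal, except where the animal is a block. Intervals of counting error are not given, since the spread between animals is larger, and the floor of 3 reads covers counting error only.

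The members and all gene lists were chosen with earlier results of these data known. All members were named in every comparison. Pathway genes were named where called for sex, or where highest in their list in a tissue. Genes alike were the 3 with the highest r. Some genes that these rules name are not reported here.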

Additional observations from a re-analysis of the deposited data

Results flagged for a closer look

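In 10 of the 62 groups of 5 libraries tested, 1 animal stood apart from the other 4 of its sex and tissue. The gap was more than Dixon's 95% critical value for 5 samples (0.71 of the whole range). That value assumes normal data, while CPM were used untransformed and some groups held few reads. The rate of about 1 group in 20 does therefore not apply, and the number 10 is a description only. In fat, STRA6 was 1.69 CPM in cow 2 (26 reads) beside 0 to 0.206 CPM in the other cows, CRABP1 was 0.541 CPM in bull 5 (7 reads), LRAT was 14.1 CPM in bull 4, and RDH10 was 1.31 CPM in bull 5, the lowest. In muscle, RBP4 was 122 CPM in cow 5, TTR was 4.41 CPM in cow 2 (51 reads), CRABP1 was 0.552 CPM in cow 1 (4 reads), CRABP2 was 56.3 CPM in cow 4 and LRAT was 2.48 CPM in bull 4 (15 reads). In pituitary gland, LRAT was 9.52 CPM in bull 5. No liver library stood apart in this way.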

How the results depend on the processing

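The tissue differences of the 8 genes kept their direction and their side of the threshold under the alternatives tried except as follows. Without TMM factors the log2 difference was -0.099 for CRABP1 (liver to fat), 0.41 for RDH10 (fat to muscle) and -0.064 for TTR (fat to pituitary gland), each of the other sign and not called; STRA6 and CRABP2 (fat to muscle) and ALDH1A1 (muscle to pituitary gland) are given above. With the animal as a block TTR was at -0.023 (fat to pituitary gland) and CRABP2 at -0.75 (fat to muscle), and no other call of a member changed with this pairing. Leaving out 1 animal or the 2 doubtful libraries in turn, the called members numbered 4 to 6 for fat to muscle, 6 to 7 for fat to pituitary gland and 6 to 7 for muscle to pituitary gland, and stayed at 7, 7 and 8 for liver; CRABP1 ran from -0.30 to 1.24 (fat to muscle) and TTR from -0.28 to 0.27 (fat to pituitary gland). The median log2 difference of all genes without TMM factors was -0.78 for liver to fat, -0.92 for liver to pituitary gland, 0.86 for fat to muscle and -0.89 for muscle to pituitary gland, beside -0.13, -0.12, 0.14 and -0.02 with them. The share of calls that were higher in the first tissue moved with it, from 45.1 to 23.2%, 45.5 to 21.5%, 55.0 to 80.0% and 49.0 to 21.0%. For sex within a tissue, no paired analysis was possible because the numbers of cows and bulls do not pair them. The 1 member called in pituitary gland became 0 in the quasi-likelihood test (3 at an unadjusted p under 0.05; 1 in DESeq2), and 1 to 2 without single animals; in muscle the number was 0 to 1. RBP4 without TMM factors was at -0.0073 in pituitary gland, and without single animals RBP4 ran from -0.92 to 0.029 and CRABP2 from -1.69 to 0.18 in muscle. Of the 31 sex differences of members not given as fold changes, none had an adjusted p under 0.05 in any of 512 alternative values, 46 of which had the other sign. The genes called for sex among all genes were 12 in pituitary gland, 7 in muscle, 3 in fat, 1 in liver, 77 in M2 and 0 in the interaction (922 at an unadjusted p under 0.05; 44 in DESeq2) with the quasi-likelihood test, beside 98, 68, 15, 23, 222 and 44 with the LRT. They were 13 in liver and 6 in fat with filterByExpr, 30 in fat with DESeq2, and 56 in pituitary gland and 717 in M2 without TMM factors, where the share higher in bulls moved from 74.5 to 57.1% and from 19.8 to 5.16%. For sex the median of all genes without TMM factors was -0.18 in M2, -0.13 in pituitary gland, -0.15 in muscle, -0.21 in fat and -0.13 in liver. With limma, voom and the animal as a replicate block they were 8 in M2 and 13 in the interaction. Without single animals they ran from 54 to 231 in pituitary gland, 25 to 553 in muscle, 5 to 22 in fat, 10 to 187 in liver, 57 to 714 in M2 and 9 to 197 in the interaction. For each of these changes the cause was not tested. Outside the pituitary gland CRABP1 had at most 7 reads per library and STRA6 at most 5 apart from 26 in the fat of cow 2, and CRABP2 had at most 1 in liver, so levels there are known only coarsely.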
